A study of Mus musculus with 2 samples.

Results

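The Clec family comprises the genes that carry the symbol Clec with a number, most of which encode proteins with a C-type lectin domain. Members were taken by symbol alone. The RefSeq gene table used for naming lists 34 of them, and 32 were read by 42 probes whose transcript accession matched the table, out of 22910 genes named in this way on the arrays. Clec7a, which encodes Dectin-1, and the pseudogene Clec2j had no matched probe and are not described further.

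Primary and self-renewing macrophages were compared on Agilent 1-colour expression arrays, with 1 array for each. Both cultures were grown from unfractionated bone marrow of C57BL/6 mice, labelled male, in medium with 100 ng/ml recombinant human M-CSF. The sample of primary macrophages is labelled day 5 (5 to 7 days in the methods). Self-renewing macrophages were taken after passage 4, at which most cells stopped dividing and growing colonies appeared. The methods state that bulk cells were used unless otherwise noted, so the self-renewing array is read as 1 bulk culture and not a clone. Neither culture carried an engineered allele, and the labels name no stimulus other than M-CSF.

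C-type lectin receptors bind sugars, lipids or proteins at the surface of myeloid cells. Dectin-2, Mincle and MDL-1 have short tails and signal through the adaptors FcRγ (Fcer1g) or DAP12 (Tyrobp) to the kinase Syk and the adaptor Card9, whereas receptors such as DCIR1 and MICL carry an inhibitory motif in their own tail. Other members are endocytic receptors, ligands of natural killer cell receptors or secreted proteins. Most of the myeloid receptors lie in a pair of gene clusters on chromosome 6, named after Dectin-2 and Dectin-1.

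Sequence upstream of 4 receptor genes is shown first, because these genes are described below as neighbours that differed in size or direction and, for Clec5a, as a receptor read by several probes. Each run gives the 250 bases before the RefSeq transcription start, 5′ to 3′ on the strand of the gene, in build GRCm38.p6. Capitals mark matches, on either strand, to GAGGAA, the core bound by PU.1, a transcription factor of myeloid cells, and to TTGCNNAA, a C/EBP motif.
Clec4b1, chr6:123049712-123049961, plus strand: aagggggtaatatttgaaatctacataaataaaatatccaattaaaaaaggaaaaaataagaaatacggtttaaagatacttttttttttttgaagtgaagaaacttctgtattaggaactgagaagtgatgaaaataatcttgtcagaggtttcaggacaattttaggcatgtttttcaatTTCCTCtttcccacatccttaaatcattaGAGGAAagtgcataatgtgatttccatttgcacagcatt
Clec4d, chr6:123261857-123262106, plus strand: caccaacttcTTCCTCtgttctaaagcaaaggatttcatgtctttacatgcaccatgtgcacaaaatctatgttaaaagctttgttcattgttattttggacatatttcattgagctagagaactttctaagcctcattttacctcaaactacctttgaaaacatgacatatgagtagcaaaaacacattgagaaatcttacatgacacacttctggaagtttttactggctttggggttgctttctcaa
Clec4e, chr6:123289872-123290121, minus strand: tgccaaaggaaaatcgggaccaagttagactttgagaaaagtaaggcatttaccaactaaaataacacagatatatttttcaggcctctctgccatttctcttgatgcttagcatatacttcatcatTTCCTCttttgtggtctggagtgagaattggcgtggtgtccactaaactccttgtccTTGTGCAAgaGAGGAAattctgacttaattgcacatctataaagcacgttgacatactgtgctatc
Clec5a, chr6:40585806-40586055, minus strand: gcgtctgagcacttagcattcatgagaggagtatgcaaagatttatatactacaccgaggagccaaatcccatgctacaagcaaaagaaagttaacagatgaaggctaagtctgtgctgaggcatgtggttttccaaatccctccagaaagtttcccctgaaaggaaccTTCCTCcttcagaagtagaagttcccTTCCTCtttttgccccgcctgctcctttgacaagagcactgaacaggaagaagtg
In Clec4e, GAGGAA stood 56 and 123 bases before the start and the C/EBP match, which overlaps neither, 66 bases before it. In Clec5a both matches read GAGGAA on the opposite strand, 81 and 55 bases before the start.

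A promoter entry was held for 26 of the 34 Clec genes, and Clec4n and Clec4a4 were among those without one. GAGGAA was found in 13 of the 26 windows, or 50%, and in 23.1% of the 27025 windows of all genes of the same length. The windows with a match included those of Clec4e and Clec5a, whose signal was higher in the self-renewing macrophages, and those of Clec4a1, Clec4b1 and Clec4b2, whose signal was lower. Matches also stood before Clec2l, Clec4d, Clec11a, Clec12a and Clec16a, none of which passed 2-fold. The rest were Clec14a and Clec18a, detected on neither array, and Clec7a, which had no matched probe. The window of Clec2g, whose signal was lower, held no GAGGAA. Clec2i, Clec4a3 and Clec10a, whose signal was also lower, are not among the genes with a match. Whether each of them had a promoter entry is not given here. TTGCNNAA was found in 4 Clec windows (15.4%, against 9.55% of all), the AP-1 motif TGANTCA in 5 (19.2%, against 6.87%) and the E-box CACGTG in 0 (against 6.05%). The motifs were chosen with the signals known, and a match describes letters in a window and not binding.

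Signals are given as log2 of the background-corrected intensity relative to the 75th percentile of the array's gene probes, which stood at 434 on the primary and 446 on the self-renewing array. Differences are self-renewing minus primary on this log2 scale. No array was repeated, so the differences carry no replicate check and were not tested. Over 5077 genes read by several probes, the log2 differences of 1 gene's probes varied with an SD of 0.325. This SD, used below as a measure of error between readings, was taken only from probes well above background on both arrays. It does not cover bounds. It covers no variation between cultures. A gene is called detected when the scanner marked at least 1 probe as well above background, and for a gene detected on 1 array only the difference is a bound, written as at least N-fold. Levels of different genes come from different probes and were not ranked against each other. In bulk RNA, fewer cells of a type and less RNA per cell cannot be told apart.

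Macrophage markers were bright on both arrays, with 10 of 10 detected on each and a summed signal of 942 times the 75th percentile in the primary and 1238 times in the self-renewing macrophages. Csf1r, the M-CSF receptor, read 8.04 and 8.42, and Adgre1, a surface marker of mouse macrophages, read 7.23 and 7.75. In this list Mertk was 4.68-fold higher and Fcgr1 3.39-fold lower in the self-renewing macrophages. For scale, 4.76% of all 15516 detected genes passed 2-fold upward and 8.38% downward. The marker lists were not tested against these shares. Of 10 neutrophil markers detected on at least 1 array, 7 were at least 2-fold lower and 0 higher in the self-renewing macrophages, and the summed signal of the list went from 119 to 6.61 times the 75th percentile, with the defining genes S100a8 and S100a9 detected on the primary array only. Of 10 detected dendritic cell markers, 5 were at least 2-fold lower and 0 higher, with a median difference of -1.21 log2. The summed signal was 236 and 214, most of it from Siglech, which read 7.60 and 7.69 log2. Itgax was 8.93-fold and H2-Ab1 8.27-fold lower. Ccr7 was at least 17.7-fold lower by its brighter probe, while its other probe gave -1.36 log2. Flt3, detected on the primary array only, and Zbtb46, detected on both, were dim. Of 8 monocyte markers, 4 were at least 2-fold lower and 2 higher, with a median difference of -2.92 log2. The summed signal was 41.7 in the primary and 75.8 in the self-renewing macrophages. Most of the latter came from Ly6c2, which was higher by 2.50 log2. Ccr2 had a difference of -6.64. Chil3 was at least 306-fold and Plac8 at least 47.7-fold lower. F13a1 was at least 200-fold lower by its brighter probe, while its other probe gave -0.45 log2. Platelet markers were lower in 3 of 6, at 259 and 54.5. The lists for B cells (1.95 and 0.294), erythroid cells (4.98 and 2.19), mast cells (0.439 and 0.350), natural killer cells (1.06 and 0.822), T cells (8.19 and 7.93) and endothelial cells (0.881 and 0.715) had low sums on both arrays. In these lists 2 of 4 detected B cell, 2 of 4 erythroid and 1 of 5 mast cell markers were at least 2-fold lower, and 0 were higher. The B cell gene Cd79b was at least 54.4-fold lower. The part of any of these cells in the Clec differences was not tested. Of 8 Y-linked genes on the array, 1 was detected in the primary and 5 in the self-renewing macrophages, and Xist was detected in the primary only, although both samples are labelled male. None of the Clec genes lies on a sex chromosome, and whether the animals differed otherwise was not tested.

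Detection of the Clec genes was near that of all genes. On the primary array 22 of 32 were detected (68.8%, against 66.3% of all named genes), and on the self-renewing array 19 (59.4%, against 62.6%). The 19 were detected on both arrays. Clec2i, Clec4b2 and Clec11a were detected in the primary macrophages only, and no Clec gene in the self-renewing macrophages only. All genes leaned the same way. Of 15516 genes detected on at least 1 array, 15189 were detected on the primary and 14340 on the self-renewing array. Whether the split of the Clec genes differs from that of all genes was not tested.

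Of the 22 detected Clec genes, 3 had a signal higher by 2-fold or more in self-renewing macrophages (13.6%, against 4.76% of all 15516 detected genes) and 8 were at least 2-fold lower (36.4%, against 8.38%). Among the 19 detected on both arrays, 3 were higher (15.8%, against 4.2% of 14003 genes) and 6 lower (31.6%, against 5.58%). Of the other 11 detected genes, Clec11a has a bound under 2-fold and the rest differed by less than 2-fold. Among the 19, 6 differed by less than the SD between probes, namely Clec1b, Clec2l, Clec3b, Clec4a2, Clec4g and Clec16a. Of these, Clec2l, Clec4a2 and Clec4g were dim on both arrays, with intensities from 16.9 to 44.2. The median Clec difference was -0.05 log2 and that of all detected genes -0.02, the former changing sign in 4 of the 8 other ways of processing listed with the methods.

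**Figure D1:**
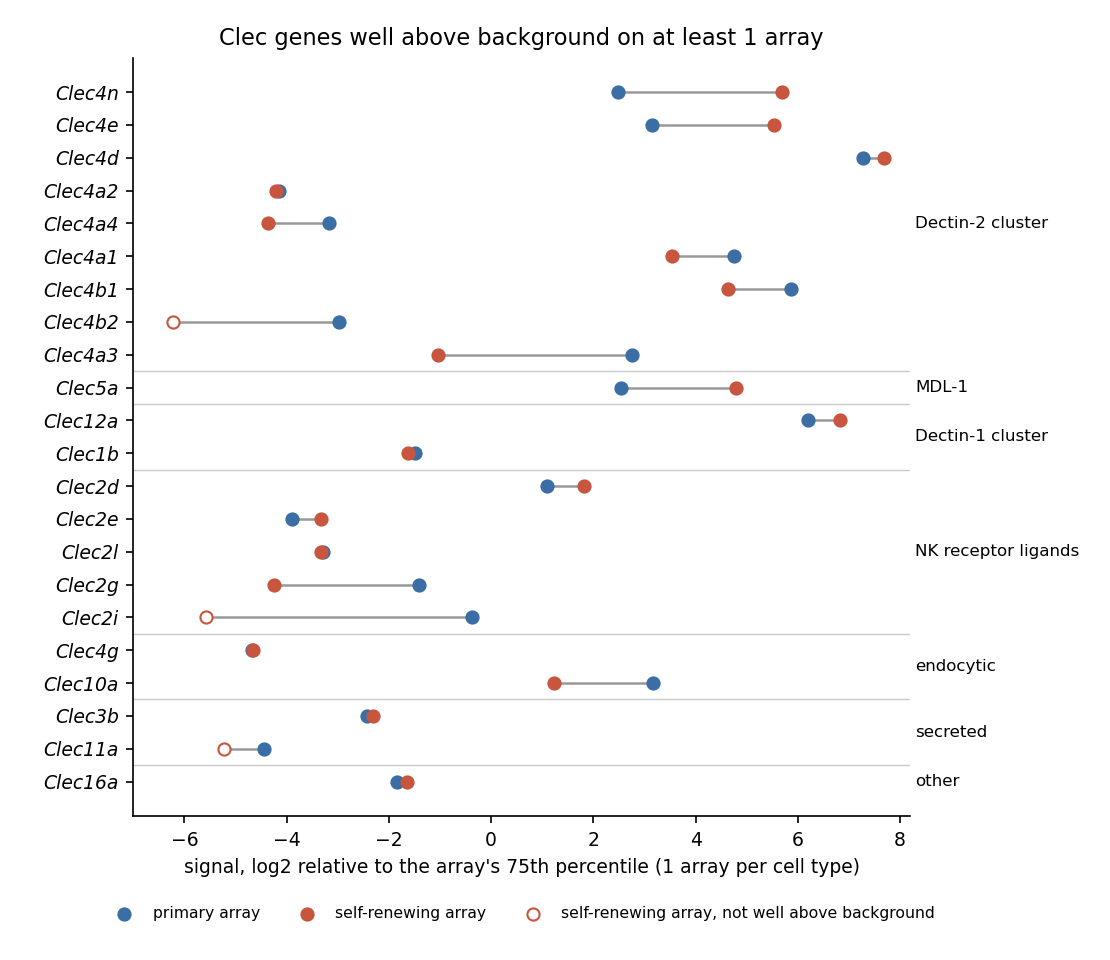
Signal of the 22 detected Clec genes on the primary array (blue) and the self-renewing array (red), as log2 relative to the array's 75th percentile on the x axis, grouped by role. Open circles are signals not well above background, and a line joins the readings of 1 gene. Positions compare arrays within a gene and not genes with each other. Clec4n, Clec4e and Clec5a lie to the right on the self-renewing array by 2.25 to 3.22 log2, and Clec4a3, Clec2g and Clec10a lie to the left, with differences from -3.79 to -1.94.

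The activating receptors of the Dectin-2 cluster included the pair of Clec genes with the largest positive differences. Clec4n encodes Dectin-2, a receptor for fungal mannans. Its probe read an intensity of 2423 in the primary and 23152 in the self-renewing macrophages, or 2.48 and 5.70 log2, a difference of 3.22 and 9.29-fold higher. Clec4e encodes Mincle, which binds the mycobacterial glycolipid trehalose dimycolate and a ligand from dying cells. It read 3870 and 20745, or 3.16 and 5.54 log2, a difference of 2.38 and 5.21-fold higher. Each of these genes was read by 1 probe. Both differences were several times the SD between probes. Clec4d, which encodes MCL, the partner of Mincle in the same receptor complex, read 7.28 and 7.69 log2, a difference of 0.41 or 1.33-fold.

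The remaining genes of that cluster had signals that were lower in the self-renewing macrophages or close to equal. They encode the DCIR and DCAR receptors, of which DCIR1 (Clec4a2) and DCIR2 (Clec4a4) carry an inhibitory tail motif. Clec4a3 read 2921 and 217 in intensity, or 2.75 and -1.04 log2, a difference of -3.79 and 13.9-fold lower, the largest measured on both arrays among the Clec genes. Clec4a1 read 4.74 and 3.54 log2, 2.30-fold lower. Clec4b1, a DCAR gene whose product pairs with FcRγ, read 5.87 and 4.63 log2, 2.35-fold lower by its brighter probe, while its dimmer probe gave a difference of -0.65, under 2-fold. The signs of these differences were opposite to those of Clec4n and Clec4e on the same arrays.

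The dim genes of the group are less firm. Clec4a4 read intensities of 48.5 and 21.8, near the lowest signals marked well above background (11.8 on the primary and 13.2 on the self-renewing array), and its difference of -1.19 log2 was -0.45 with a model-based background correction. Clec4b2 read 55.6 on the primary array and was not detected on the other, which makes it at least 4.34-fold lower, while that correction gave a difference of -0.78 log2. Clec4a2 read 24.5 and 24.1, a difference of -0.06 log2. The probe sequences were not analysed here, so cross-hybridisation among these closely related genes was not tested.

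Genes with positive and with negative differences lay in separate stretches of the Dectin-2 cluster on chromosome 6. From one end, Clec4a1, Clec4a3, Clec4a4, Clec4b1, Clec4a2 and Clec4b2 lie next to each other, and their differences ran from -3.79 to -0.06 with a median of -1.22, 5 of the 6 being at least 2-fold lower. After 2 genes without a probe come Clec4n, Clec4d and Clec4e, whose differences ran from 0.41 to 3.22 with a median of 2.38. No gene of the second stretch had a negative difference, while Clec4a2 of the first had a positive one in 3 of the 8 other ways of processing, up to 0.14. The stretches were described after the values were known, and neighbouring genes of 1 cluster are related by sequence and are not independent readings.

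**Figure D2:**
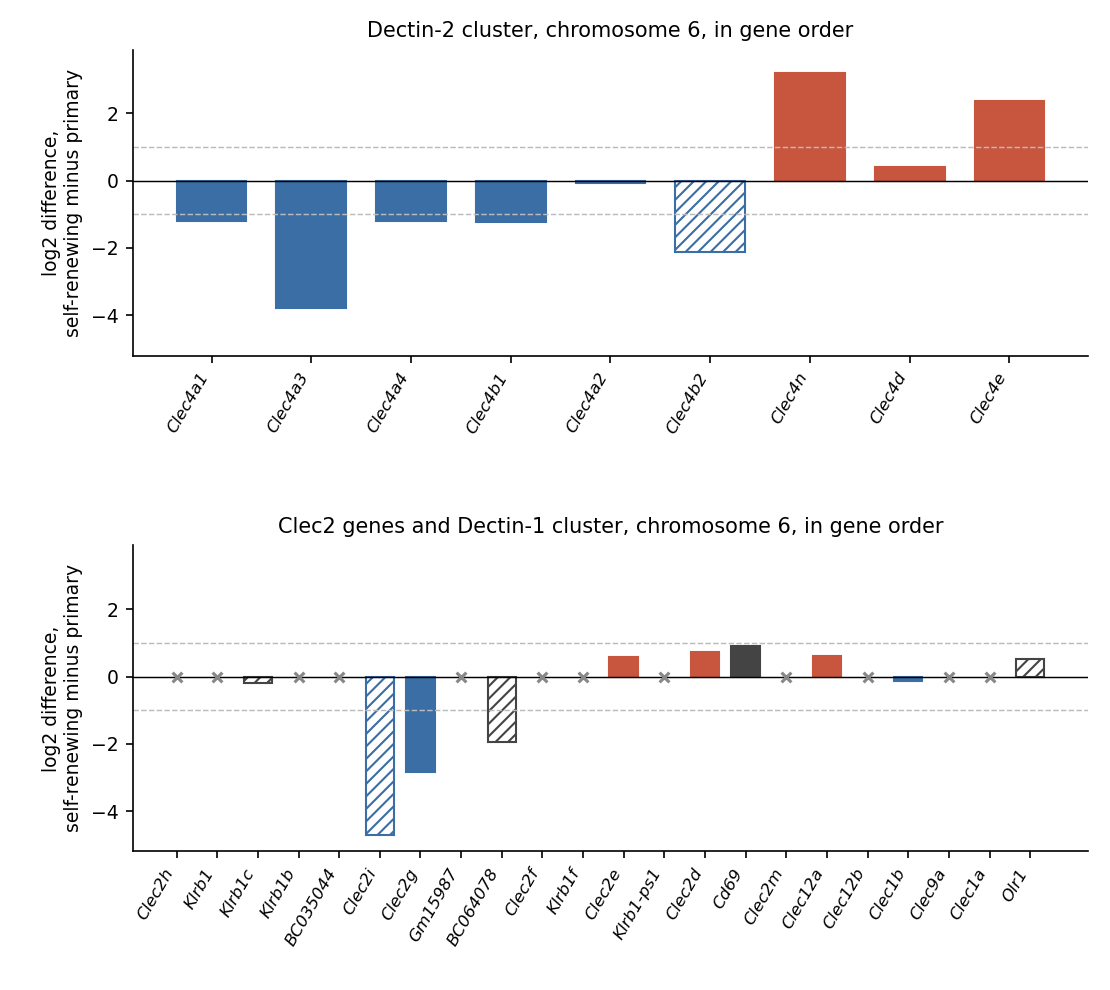
Log2 difference, self-renewing minus primary, on the y axis for genes in RefSeq order on chromosome 6, with the Dectin-2 cluster in the upper panel and the Clec2 genes and the Dectin-1 cluster in the lower panel. Red bars are Clec genes that were higher, blue bars Clec genes that were lower, dark bars other genes, hatched bars bounds and crosses genes detected on neither array, with genes that had no probe left out and dashed lines at 2-fold. The 6 genes from Clec4a1 to Clec4b2 lie at or below -0.06 and the 3 genes from Clec4n to Clec4e at or above 0.41.

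Clec5a encodes MDL-1, a DAP12-coupled receptor of monocytes and macrophages, and lies on chromosome 6 outside both clusters. Its brightest probe read intensities of 2524 and 12321, or 2.54 and 4.79 log2, a difference of 2.25 and 4.75-fold higher in the self-renewing macrophages. The other 2 probes gave differences of 2.13 and 2.17, all 3 past 2-fold in the same direction.

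Of the Dectin-1 cluster, 5 genes were measured and 2 detected. Clec12a encodes MICL, an inhibitory receptor for uric acid crystals, and read 6.21 and 6.82 log2, a difference of 0.62 or 1.53-fold. Clec1b encodes CLEC-2, the podoplanin receptor best known from platelets, and read -1.49 and -1.61, a difference of -0.12 that was 0.07 with the authors' scaling. Clec1a, Clec9a (DNGR-1, a receptor of cross-presenting dendritic cells) and Clec12b were not well above background on either array. The platelet marker list was lower in the self-renewing macrophages, as given above, while Clec1b differed by less than the SD between probes.

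The Clec2 genes encode ligands of the NKR-P1 receptors of natural killer cells and related proteins. Those measured here, other than Clec2l and Clec2m, lie among or beside the genes of those receptors. Of 8 measured, 5 were detected, 2 of them lower and 0 higher by 2-fold. Clec2i read an intensity of 337 in the primary macrophages and was not detected in the self-renewing macrophages, which makes it at least 26.4-fold lower by its brighter probe, at -0.36 log2 on the primary array. Its dimmer probe gave a bound of -1.16 log2. Clec2g, the next measured gene on the chromosome, read 164 and 23.6, or -1.40 and -4.24 log2, a difference of -2.84 and 7.16-fold lower. With the model-based background correction these differences were -2.53 and -1.49 log2, still past 2-fold. BC064078, a gene close by in this region that is no Clec gene, was also detected in the primary macrophages only, with a bound of -1.96 log2 that was -0.61 with the same correction.

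The other detected Clec2 genes differed by less than 2-fold. Clec2d encodes Clr-b, an inhibitory ligand for NKR-P1B found on most blood cells. It read 1.09 and 1.83 log2, a difference of 0.73 by one probe and 0.60 by the other. Clec2e read -3.90 and -3.32 log2, a difference of 0.57 that went to 0.21 with the model-based background correction. Clec2l, first described in brain, read -3.30 and -3.34, a difference of -0.04 that was 0.15 with the authors' scaling. Clec2f, Clec2h and Clec2m were detected on neither array.

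Among the endocytic receptors, Clec10a encodes MGL1, which takes up ligands with terminal galactose and is widely used as a marker of alternatively activated macrophages and of some dendritic cells. It read intensities of 3895 and 1041, or 3.17 and 1.22 log2, a difference of -1.94 and 3.85-fold lower in the self-renewing macrophages. Its second probe, much dimmer, gave -1.95. Clec4g, which encodes LSECtin of liver sinusoidal endothelium, read -4.68 and -4.65, just above the lowest detected signals. Clec4f, a receptor of Kupffer cells, was detected on neither array.

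**Figure D3:**
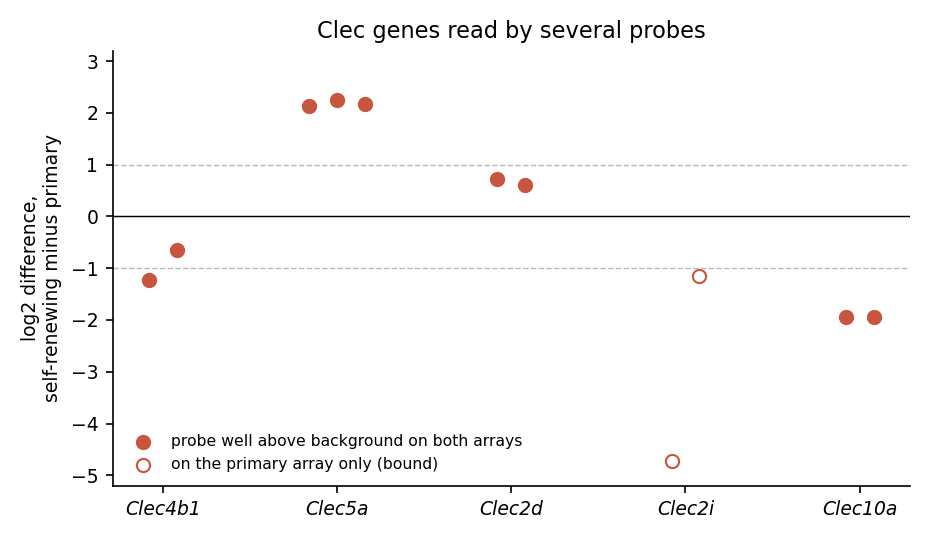
Log2 difference, self-renewing minus primary, on the y axis for each probe of the 5 Clec genes with several detected probes. Filled circles are probes detected on both arrays, open circles bounds from probes detected on the primary array only, and dashed lines mark 2-fold. The 3 Clec5a probes lie between 2.13 and 2.25 and the Clec10a probes at -1.95 and -1.94, while the Clec4b1 probes (-1.23 and -0.65) lie on either side of 2-fold and the Clec2i bounds are -4.72 and -1.16.

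None of the secreted and remaining members passed 2-fold. Clec3b encodes tetranectin, a plasminogen-binding protein, and read -2.42 and -2.31 log2. Clec11a, which encodes a secreted growth factor of bone marrow, was detected in the primary macrophages only, at an intensity of 19.9, and was at least 1.56-fold lower. Clec16a, which is named in the family but acts in endosome and mitochondrial turnover, read -1.83 and -1.64 by the 1 of its 2 probes that was detected. Clec3a, Clec14a and Clec18a were detected on neither array. Over the 10 Clec genes on neither array, intensities ran from 2.41 to 12.0.

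Lectin genes without a Clec symbol were counted from a list of 59. Of 56 measured, 30 were detected, 2 were at least 2-fold higher (6.67%, against 4.76% of all detected genes) and 1 lower (3.33%, against 8.38%), with a median of -0.18 log2 that was 0.01 with the authors' scaling. Cd207 encodes langerin, the endocytic receptor of Langerhans cells, and read -1.73 and 1.82 log2, a difference of 3.55 and 11.7-fold higher in the self-renewing macrophages by 1 probe. Cd302, a receptor linked to adhesion and uptake, read 3.62 and 4.77, 2.21-fold higher. Prg2, which encodes a granule protein of eosinophils, was detected in the primary macrophages only and was at least 6.07-fold lower, while the model-based background correction gave a difference of -0.87 log2, under 2-fold.

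The signalling genes downstream of these receptors were detected throughout, 49 of 49 on both arrays. Their median difference was 0.34 log2, with 36 above and 13 below 0. Over all genes detected on both arrays the median was 0.006. The 10 macrophage markers also had a median of 0.34, with 8 above and 2 below 0. The share of all genes above 0 was not counted. Whether the shift is particular to this list was not tested. A difference of 2-fold was reached upward by 2 of the list (4.08%) and downward by 3 (6.12%). These shares were near the 4.2% and 5.58% of all genes detected on both arrays. The adaptor genes Fcer1g and Tyrobp read 7.89 and 8.38, and 7.71 and 8.16 log2, differences of 0.49 and 0.45. Syk read 4.24 and 4.10, a difference of -0.14 that became 0.05 with the authors' scaling. Card9 read -1.47 and -0.69, a difference of 0.78 by one probe and 0.32 by the other. The adaptor, kinase and Card9 signals thus differed by less than 2-fold where those of Clec4n, Clec4e and Clec5a differed by 4.75-fold or more.

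The signalling genes past 2-fold were few. Relb and Nfkb2, which encode the NF-κB subunits of the non-canonical pathway, were higher by 3.05-fold and 2.13-fold. Fgr, a Src family kinase of myeloid cells, read -0.30 and -4.02 log2, 13.2-fold lower, with differences of -3.73 and -2.72 by its probes and of -2.11 with the model-based background correction. Cblb, a ubiquitin ligase that limits receptor signalling, was 3.71-fold lower, a difference of -1.89 log2 that was -1.11 with that correction. Itpr1, a calcium channel of the endoplasmic reticulum, was 2.26-fold lower and just under 2-fold, at -0.99 log2, with the authors' scaling.

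**Figure D4:**
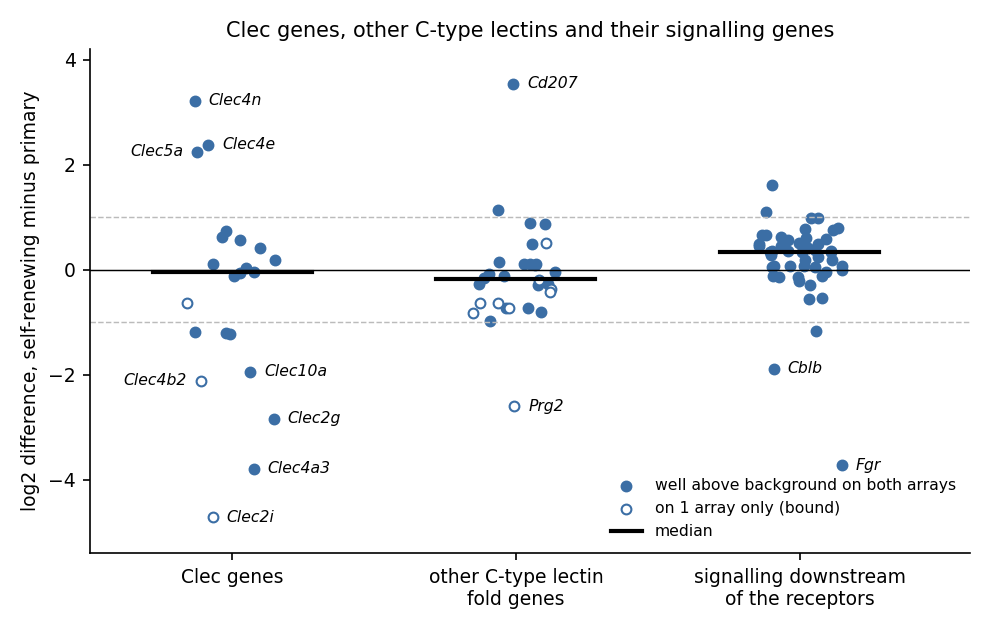
Log2 difference, self-renewing minus primary, on the y axis for the 22 detected Clec genes, 30 other C-type lectin fold genes and 49 downstream signalling genes, 1 point per gene with the genes farthest from 0 named. Filled points are genes detected on both arrays, open points bounds, thick lines medians and dashed lines 2-fold. The medians are -0.05, -0.18 and 0.34, and the Clec genes spread from -4.72 to 3.22.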

How the data were processed

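Total RNA from 1 primary and 1 self-renewing culture was labelled with Cy3 and read on SurePrint G3 arrays. The authors deposited scanner output of Agilent Feature Extraction 11.5.1.1, in which each spot has an intensity before and after background subtraction and flags for spots well above background, saturated spots and outliers, and a table of the same intensities times 1 constant per array (1.07 and 1.19). How the constants were chosen is not given in the sources used here.

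Control spots and 63 outlier spots per array were left out of 59305 gene spots, spots of a probe were averaged, and log2 of the deposited background-corrected intensity was taken less the array's 75th percentile over gene probes. Of the 56598 probes, 34808 and 33095 were well above background and none was saturated, and the median SD between the spots of probes printed in 10 copies was 0.0467 log2. Transcript accessions matched 32988 of 56598 probes to 22910 genes in a RefSeq table of GRCm38.p6. The array design is on an earlier build, so the table served for names, gene order and promoter sequence only. A gene is represented by its brightest probe. A bound was taken against the higher of the lowest signal well above background on the other array and the probe's own signal there. Promoters were searched over the 250 bases before the start.

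The Clec members, the gene lists and the motifs were chosen with earlier results of these data known. All detected Clec genes are named, as are genes of the pathway lists past 2-fold, Fcer1g, Tyrobp, Syk and Card9. Of the marker lists only some defining, highest or lowest genes are named, with others chosen after their values were seen. BC064078 was named after its value was seen. The alternatives were normexp with an offset of 50 on the median spot and background signals, quantile normalization, scaling by the 75th percentile or the median of probes detected on both arrays, the scaled values of the authors, omission of the background filter, restriction to genes detected on both arrays, and the mean of the probes of a gene. The scripts were tested on simulated data. Software was Python 3.11.15 (numpy 2.4.6, pandas 2.3.3, matplotlib 3.10.9) with limma 3.58.1 in R 4.3.3. The study's other assays were not analysed here.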

Additional observations from a re-analysis of the deposited data

How the results depend on the processing

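Over the 8 alternatives the count of Clec genes at least 2-fold higher was 3 to 4 and the count lower was 6 to 10, the extremes being the normexp background correction (6 lower) and no filter on background (4 and 10). No Clec gene past 2-fold changed direction. Of 173 values for the 22 detected genes, 163 stayed within 1 SD between probes of the value reported and 10 values of 7 genes did not. Clec4n stayed between 3.12 and 3.40 log2, Clec4e between 2.35 and 2.57, Clec5a between 2.18 and 2.43, Clec10a between -1.96 and -1.76 and Clec4a3 between -3.81 and -3.47. Clec4a4 (-0.45) and Clec4b2 (-0.78) dropped below 2-fold with normexp, and Clec4b1 (-0.94) with the mean over its probes. Normexp also gave -2.53 for Clec2i, -1.49 for Clec2g, 0.21 for Clec2e and -0.13 for Clec11a. The median Clec difference ran from -0.07 to 0.14 log2. The authors' scaling moved the median of all genes to 0.17 and the split of all genes past 2-fold from 739 higher and 1300 lower to 1035 and 1069. Normexp gave 429 and 750, and no filter 1192 and 2336. Restricting the comparison to genes detected on both arrays left 3 Clec genes with no value. Naming by the gene symbols of the scanner output was not run, since these files hold no such column. No paired analysis was possible because no array was repeated. Signals close to background on at least 1 array limit Clec2i, Clec2g, Clec4b2, Clec4a4, Clec2e, Clec11a, Clec4g, Clec4a2 and Clec2l. The use of 1 array per cell type limits every value.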
